A study of Ogataea polymorpha NCYC 495 leu1.1 with 8 samples.

Results

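The genes described here rose strongly when the methylotrophic yeast Hansenula polymorpha was moved from glucose to methanol, but already gave a clear signal on glucose. They were selected on the measured values: a log2 ratio of methanol over glucose of at least 3.32 (about 10-fold), a mean log2 signal of both conditions (the A-value) of at least 6, 17 genes left out by name, and then removal of the 80 genes with the lowest glucose signal. Of 5999 genes on the array, 195 passed both limits (3.25%), and 98 remained. Because the ratio and the glucose signal chose them, both are given as a description without a test. All cells were of strain NCYC 495 leu1.1, whose leu1.1 allele both conditions carry, grown at 37 °C. Glucose samples came from 4 independent batch cultures at an optical density of 2.3, and methanol samples from the same cultures 2 hours after transfer to 0.5% methanol at an optical density of 0.2. The shift thus changed carbon source and cell density together, and their parts cannot be told apart. Both RNAs of a culture were hybridised on 2 two-colour arrays with exchanged dyes, and the average of both arrays gave 1 value per culture (n = 4).

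Methanol is oxidised in peroxisomes to formaldehyde, which is either built into sugar phosphates or burned to carbon dioxide with formation of NADH. NADH from this and from the TCA cycle feeds the respiratory chain, where complex I, a large proton-pumping enzyme of the mitochondrial inner membrane, accepts its electrons. Glucose represses many yeast genes for the use of other carbon sources, among them genes for maltose uptake, acetate activation and the glyoxylate cycle. Gene roles below are those of the closest database match listed by the study and were not tested in H. polymorpha here. A closest match was listed for 75 members. For 23 none stood in the readable part of the study's gene table, and the rest of it was not searched.

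Signals below are log2 processed intensities, and a log2 ratio is the methanol minus the glucose signal. Brightness depends on the probe, so that the place of a signal among the members describes the spots and not the amount of RNA. In bulk RNA, more cells with a transcript and more transcript per cell cannot be told apart. Every member was well above background in both conditions on all 8 arrays, beside 5463 of all 5999 genes on glucose and 5375 on methanol. For both signals the selection itself favoured this. Of the 80 genes with the lowest glucose signal, 59 were well above background on glucose on all 8 arrays. The median glucose signal of the members was 10.48, below the 11.21 of all genes. On glucose, 60 members lay below the array median in every culture and 27 above it in every culture. In all 98 members the lowest methanol signal of the 4 cultures was above the highest glucose signal, as in 1199 of all 5999 genes, and nothing is read from this because the same values chose the members. The median log2 ratio of the members was 4.36 (20.5-fold), with a range from 3.34 to 7.69, and the median over all genes was 0.04. Of the members, 5 rose over 100-fold, 22 rose 30- to 100-fold and 71 less than 30-fold.

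**Figure D1:**
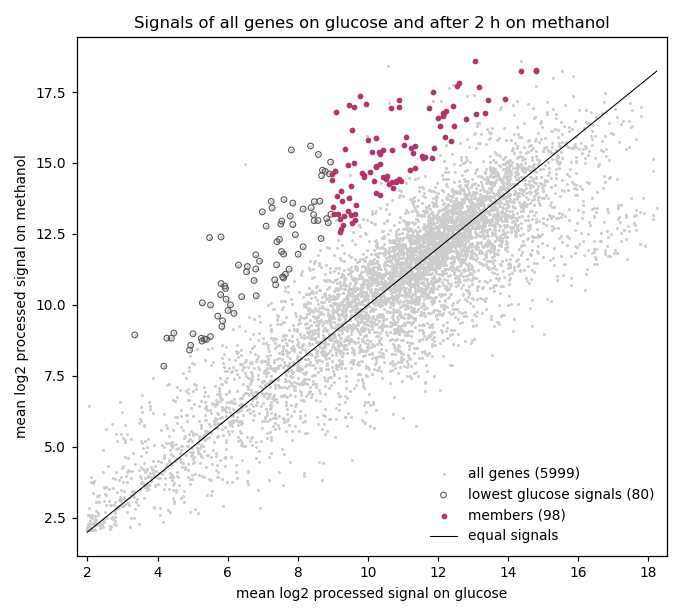
Mean log2 processed signal on glucose (x axis) and after 2 h on methanol (y axis) of every gene, over 4 cultures. The 98 members (filled, coloured) lie above the line of equal signals by at least 3.34, and the 80 genes with the lowest glucose signals (open) lie to their left.

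Sugar uptake and hydrolysis gave 10 members with log2 ratios from 3.37 to 7.69, among them 4 of the 5 largest rises. Hp27g562 matched a beta-glucosidase, which splits sugars from beta-linked glucosides. Its glucose signal was 9.11, 8.60, 8.98 and 9.72 in cultures 1 to 4, and its methanol signal 16.39, 16.55, 16.80 and 17.40. The log2 ratio was 7.69 ± 0.29 (SD, n = 4), or 206-fold, the largest of the members. Hp27g608, a sugar transporter-like protein, had glucose signals of 9.47, 9.11, 9.77 and 9.51 and methanol signals of 17.12, 16.89, 17.06 and 17.04. Its log2 ratio was 7.56 ± 0.21 (SD, n = 4). Hp11g5 had the same closest match and rose less, by 3.10, 3.83, 3.73 and 3.77 in the 4 cultures. Probes of such related genes can share signal, which was not tested.

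Maltose use was represented by a permease and a hydrolase, and the ratios of both differed little between cultures. Hp13g48, the maltose permease, rose by 7.35, 7.36, 7.53 and 7.23 on the log2 scale, a mean of 7.37 ± 0.12 (SD, n = 4). Hp13g52, the maltase MAL1 that splits the imported sugar, rose by 6.37, 6.48, 6.31 and 6.22, with an SD of 0.11. Neither maltose nor another glucoside was named in the growth conditions. Hp33g86, which matched a myo-inositol transporter of Neurospora crassa, rose by 7.21, 7.34, 7.17 and 6.86. Hp18g124, matched to a quinate transporter of N. crassa, rose by 4.98, 5.18, 5.28 and 5.23. Hp31g629, matched to the sugar transporter STP1, had a mean log2 ratio of 4.62, and an alpha-L-rhamnosidase and a glucoamylase match (Hp51r750 and Hp39g778) had 3.54 and 3.37. Of the 13 other genes on the list of sugar transporters and glycosidases, 11 were called upregulated by limma (fold change above 2, adjusted p below 0.05, A-value at least 6; 19.1% of all genes were) and 0 downregulated (21.4% of all genes). The 13 had a median log2 ratio of 1.26. For 2 of them, which had passed the same ratio limit, the call carries no weight. The list was read from the readable part of the study's gene table. That part held genes with higher signals on methanol, some of them not called upregulated here. Genes that fell could thus not be on the list, here and for all lists below. The 0 downregulated was fixed by this, and nothing is read from the counts upregulated.

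Complex I gave the largest set with a common role, 13 members with log2 ratios from 3.35 to 6.64. Hp47g1065 matched a large iron-sulfur subunit of N. crassa that carries electrons away from the NADH site. Its glucose signal was 10.07, 9.14, 9.11 and 9.81, its methanol signal 17.05, 15.40, 15.96 and 16.27, and its log2 ratio 6.64 ± 0.34 (SD, n = 4). Hp35g59 (NUCM of Yarrowia lipolytica), which lies near the quinone site, rose by 6.31, 6.27, 6.48 and 6.08. Hp35g39 (NUHM), part of the NADH-oxidising arm, rose by 5.90, 5.14, 6.35 and 5.78. Culture 2 was the lowest of the 4 for Hp35g39 and for 10 of the 13 members. It was also the lowest in 42 of all 98 members, in 35.5% of the 1145 genes called upregulated and in 18.2% of all genes.

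Hp27g294 (NDH51), which binds NADH, had a mean log2 ratio of 5.48, Hp47g258 (ALI1) 5.27 and Hp31g369 (NUIM), an iron-sulfur subunit, 4.52. Further members of the set reached from 4.60 for Hp24g690 and 4.30 for Hp15g707 to 3.42 for Hp19g193, 3.39 for Hp1g442 and 3.35 for Hp15g629. Hp24g484a had a mean of 4.26 and Hp24g204a of 4.21. Hp29g300, matched to the assembly protein CIA84 of N. crassa, rose by 5.84, 4.99, 5.51 and 5.36. The 6 other complex I genes on the list had log2 ratios from 2.89 to 5.33. Of these, 4 were among the genes with the lowest glucose signal. These had passed the same ratio limit, so that a call for them carries no weight. The remaining Hp31g602 (3.16) and Hp32g177 (2.89) were called upregulated by limma. Hp44g189, matched to the assembly protein CIA30, had passed the ratio limit too, with 4.82 ± 0.44 (SD, n = 4), and is given without a test. Complex I genes thus stood on both sides of the glucose limit. Of 2 NADH dehydrogenases that consist of a single protein and pump no protons, 1 was called upregulated, Hp8g452, with 2.71 ± 0.57 (SD, n = 4, adjusted p = 0.000111, limma). The other, Hp31g30, had 0.85 ± 0.61.

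**Figure D2:**
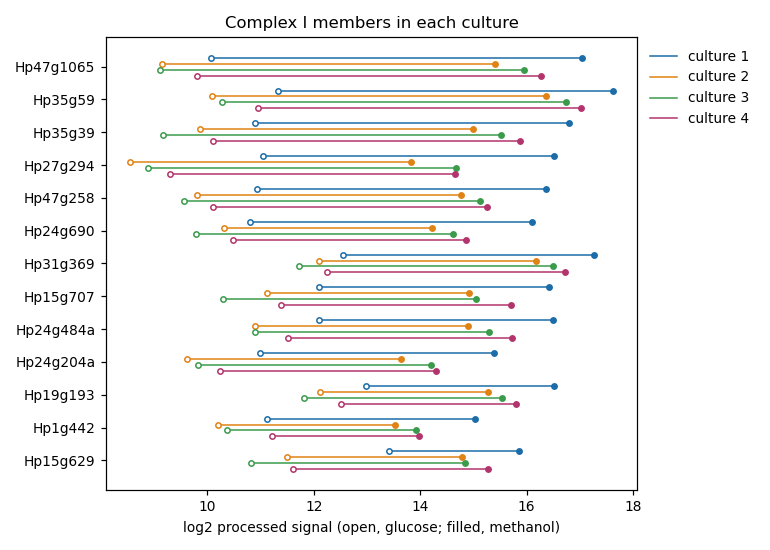
Log2 processed signal (x axis) of the 13 complex I members on glucose (open) and methanol (filled), 1 line per culture. In every gene and culture the methanol signal lies to the right of the glucose signal, and culture 1 has the brightest methanol signal in all 13 genes, before any centring on the array median.

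Enzymes of the TCA and glyoxylate cycles, with an NADP-linked isocitrate dehydrogenase grouped with them here, gave 4 members that rose by 3.87 to 4.85. Hp29g305, isocitrate lyase, which opens the glyoxylate cycle, had glucose signals of 12.61, 11.19, 10.10 and 10.43 and methanol signals of 17.30, 16.28, 14.99 and 15.16. Both signals were higher in cultures 1 and 2 than in 3 and 4, while the log2 ratios of 4.69, 5.09, 4.89 and 4.72 stayed close together. Hp36g14, the NADP-linked isocitrate dehydrogenase, rose by 4.63, 4.70, 4.73 and 4.37. The study lists Hp36g14 and Hp29g305 among genes related to fatty acid beta-oxidation. Hp32g425, mitochondrial malate dehydrogenase, rose by 4.51, 4.03, 4.54 and 5.27, highest in culture 4. Hp24g866, citrate synthase, which joins acetyl-CoA to oxaloacetate, had glucose signals of 14.30, 13.86, 14.69 and 14.57, the third highest mean of the members, and rose by 4.13, 4.03, 3.59 and 3.74. Of 11 other genes on the list, which could hold no genes that fell, 7 were called upregulated by limma (19.1% of all genes were). These included malate synthase (Hp43g61), the second glyoxylate enzyme, with 3.01 ± 0.61 (SD, n = 4), and ACR1 (Hp24g532), a mitochondrial succinate-fumarate carrier, with 3.23 ± 0.28.

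Genes for acetaldehyde and acetate metabolism gave 5 members. Hp15g65, acetyl-CoA synthetase, which activates acetate, had glucose signals of 9.93, 9.39, 9.59 and 10.17 and methanol signals of 18.25, 16.44, 17.35 and 17.41. Its log2 ratio of 7.59 ± 0.57 (SD, n = 4) was the second largest of the members, with culture 1 highest and culture 2 lowest. Hp8g313, an aldehyde dehydrogenase (ALD), had methanol signals of 18.93, 18.28, 18.53 and 18.58 and rose by 5.48, 5.84, 5.64 and 5.20. It was the only member with a saturated spot, on 2 arrays in the methanol channel, so that its methanol signal there is a lower bound. Hp1g226, matched to YOR374w (ALD4 of Saccharomyces cerevisiae), a mitochondrial aldehyde dehydrogenase, rose by 4.70, 4.87, 4.80 and 4.05. Hp5g471 and Hp46g49 both matched FUN34, a membrane protein of the acetate and ammonia transporter family in S. cerevisiae. Hp5g471 differed most between cultures of all members: its glucose signal was 13.29, 12.79, 10.73 and 11.14, and its log2 ratio 4.53, 2.90, 5.72 and 5.17. Hp46g49 had a mean of 3.71. All 8 other genes on the list, which could hold no genes that fell, were called upregulated by limma (19.1% of all genes were). Their log2 ratios were from 1.06 to 4.22. For 2 of them, which had passed the same ratio limit, the call carries no weight.

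Polyol dehydrogenases, which interconvert sugar alcohols and sugars, gave 8 members with log2 ratios from 3.97 to 5.63. Hp29g260, matched to the L-iditol dehydrogenase SOR1, rose by 5.55, 5.65, 5.87 and 5.46. Hp1g67, matched to the L-arabinitol dehydrogenase LAD1, rose by 5.29, 5.47, 5.64 and 5.32 and had one of the lowest glucose signals of the members, 8.97. Hp47g728, matched to SOU1, rose by 4.65, 5.22, 5.34 and 5.55. SOU1 was also the closest match of Hp8g634 (4.62) and Hp32g510 (3.97). Both Hp29g268 and Hp29g264 matched a mannitol dehydrogenase of Alternaria alternata, with 5.04 and 4.78. Hp32g452, matched to D-arabinitol dehydrogenase, rose by 4.09, 4.40, 4.72 and 4.78. All 8 exceeded the limit in each of the 4 cultures, beside 66 of all 98 members, and the mean of these values chose the members. The 3 other genes on the list had log2 ratios from 1.77 to 5.10. The same ratio limit had been passed by 2 of them, so that a call for these carries no weight. Hp8g553 (1.77) was called upregulated by limma.

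Stress and redox genes gave 5 members. The SD between cultures was from 0.79 to 1.08 in 4 of them and 0.29 in Hp37g164, beside a median of 0.35 over all members, and this difference was not tested. Hp47g394, matched to the stress protein Hsp12, rose by 6.44, 4.76, 5.29 and 4.40. Hp2g157, matched to YKL086w (SRX1 of S. cerevisiae, the sulfiredoxin that repairs overoxidised peroxiredoxins), rose by 4.08, 4.81, 5.92 and 4.46. Hp46g22, matched to YLR205c (HMX1 of S. cerevisiae, a heme oxygenase), rose by 2.14, 4.55, 4.06 and 4.17, lowest in culture 1. Hp12g94, matched to the chaperone HSA1, rose by 3.06, 2.22, 3.65 and 4.63, and its glucose signal was 14.49, 13.87, 12.80 and 12.26. Hp37g164, matched to a protein disulfide isomerase, had a mean of 3.56. Of 15 other genes on the list, which could hold no genes that fell, 8 were called upregulated by limma (19.1% of all genes were). The largest were thioredoxin reductase TRR1 (Hp26g249), at 3.25 ± 0.64 (SD, n = 4) just below the limit of the members, and glutathione peroxidase HYR1 (Hp19g287), at 2.91 ± 0.41.

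Genes for vitamins and cofactors gave 4 members. Hp42g250 matched an enzyme that makes the pyrimidine precursor of thiamine in Candida. It had the highest mean glucose signal of the members, with 15.15, 14.36, 14.40 and 15.27 in the 4 cultures, and rose by 3.46, 3.65, 3.79 and 3.08. Hp20g18, matched to a GTP cyclohydrolase, had the lowest mean glucose signal, with 9.84, 8.42, 8.25 and 9.35 and rose by 5.33, 5.53, 6.03 and 5.67. Hp33g222, matched to YLR328w (NMA1 of S. cerevisiae, which makes NAD), rose by 4.36, 3.32, 3.67 and 3.29. Hp42g314, matched to riboflavin synthase RIB5, rose by 3.22, 3.81, 3.80 and 3.73. The other gene on the list, GTP cyclohydrolase II of the riboflavin pathway (Hp19g286), was called upregulated with 1.87 ± 0.18 (SD, n = 4, adjusted p = 3.22e-05, limma).

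Regulators gave 5 members. Hp32g289 matched acu-15 of N. crassa, an activator of genes for acetate use, and rose by 5.82, 5.28, 5.59 and 5.87. Hp47g202, matched to the zinc finger protein ZNF1 of Candida albicans, rose by 4.69, 4.53, 4.68 and 4.61, with the smallest SD of the members (0.08). Hp15g482 matched PFK26, the kinase that makes fructose 2,6-bisphosphate, an activator of glycolysis, and rose by 2.88, 3.39, 3.92 and 4.66. Hp29g332 matched GCN4 of C. albicans, an activator of amino acid synthesis genes. Its glucose signal was 15.70, 14.20, 14.45 and 14.80 and its log2 ratio 2.62, 3.71, 3.81 and 3.64, so that culture 1 stood apart with the highest glucose signal and the lowest ratio. Hp31g619, matched to ARCA of Emericella nidulans, a regulator of arginine breakdown, had 3.63. The listed genes of regulation, nitrogen metabolism, other roles and unclear role that are no members had log2 ratios of at least 3.07. Some of them had passed the same ratio limit, so that no count of calls is given for any of these lists alone.

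Nitrogen metabolism gave 4 members. Hp25g508 matched YDR380w (ARO10 of S. cerevisiae, a decarboxylase in amino acid breakdown) and rose by 5.13, 5.73, 6.44 and 5.29. The amino acid transporter match Hp44g270 (YBR132c) rose by 3.76, 3.35, 3.45 and 3.58. Hp48g160, matched to a bacterial hydantoinase, rose by 3.10, 3.29, 4.00 and 3.38. Among 6 members with other roles, Hp47g1016 matched the aldolase that opens aromatic amino acid synthesis and rose by 4.55, 4.63, 4.80 and 4.72. Hp5g450, matched to hydroxyphytanoyl-CoA lyase of rat, a peroxisomal enzyme, rose by 4.77, 4.03, 4.43 and 4.35. Hp11g59, matched to transaldolase of the pentose phosphate pathway, rose by 3.04, 4.24, 4.31 and 4.73. Hp7g67 (a yippee match), Hp44g547 (carbonic anhydrase) and Hp31g417 (an RNA polymerase subunit match, C82) had 3.82, 3.65 and 3.55.

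A further 10 members had a match of unclear role. Hp39g739, matched to FrpC of Neisseria meningitidis, rose by 7.29, 5.83, 6.30 and 4.99, one of the widest spreads. Hp12g100, matched to YMR315w, rose by 2.33, 3.78, 4.70 and 4.38 and had glucose signals of 14.36, 13.15, 12.80 and 13.40. Hp9g424 rose by 4.43, 4.44, 4.80 and 5.0, and Hp7g1 by 3.28, 3.17, 4.48 and 4.53. Hp51r1334 and Hp51r1470 share a closest match and had 3.54 and 3.51. The 23 members with no listed match had log2 ratios from 3.46 to 6.16, led by Hp3bg16, which rose by 6.23, 5.32, 6.81 and 6.29, Hp24g1197, which rose by 6.01, 5.34, 5.88 and 5.45, and Hp44g718, which rose by 4.98, 4.96, 5.39 and 4.98. In 20 of these 23 the ratio exceeded the limit in each culture, beside 66 of all 98 members. The same held for 55 of the 80 genes with the lowest glucose signal and 136 of all 5999 genes. The mean of these values chose the members, so that nothing is read from the counts.

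**Figure D3:**
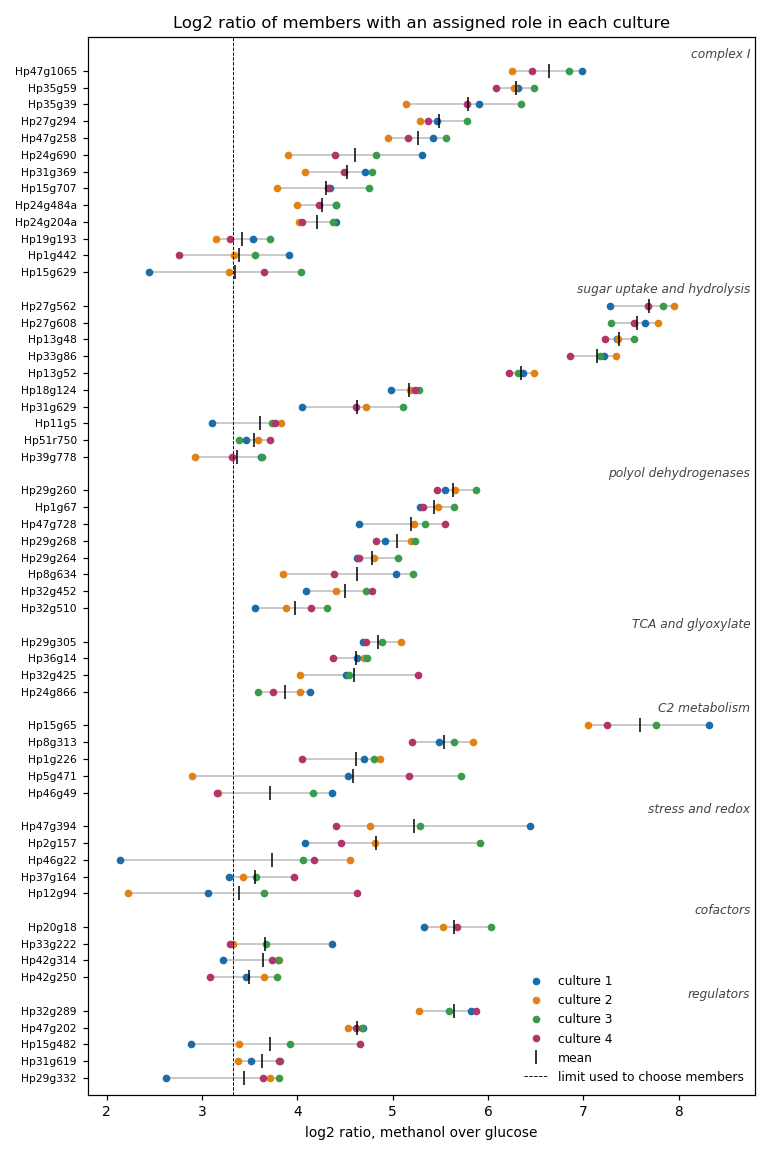
Log2 ratio of methanol over glucose (x axis) in each of 4 cultures (points) and their mean (vertical tick) for 54 members with an assigned role, by group. Hp5g471, Hp46g22 and Hp12g94 span the widest ranges and Hp47g202 the narrowest.

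The limits lay among genes with like values. Just inside the ratio limit were Hp32g443 (matched to YIL057c, RGI2 of S. cerevisiae) with 2.70, 2.68, 4.16 and 3.83, Hp15g629 with 2.44, 3.28, 4.04 and 3.65, and Hp8g36, an arginase match, with 3.86, 3.73, 3.49 and 2.36. Just outside were Hp15g333, a kinase match, with a mean of 3.317 (2.88, 2.85, 3.82 and 3.72), Hp24g1292 with 3.280 (3.48, 2.83, 3.59 and 3.22) and Hp26g249 with 3.253 (2.61, 3.32, 4.11 and 2.98). The cultures of each of these genes lie on both sides of the limit. The glucose signals of the last members, Hp24g715 (8.990), Hp1g67 (8.967) and Hp20g18 (8.965), were close to those of the first genes outside, Hp15g536 (8.944), Hp1g503 (8.935) and Hp14g86 (8.901). Hp24g715 rose by 4.08, 4.26, 4.87 and 4.61. The genes outside rose by 4.73, 3.94, 4.19 and 4.15 (Hp15g536), by 6.54, 5.61, 5.89 and 6.35 (Hp1g503) and by 5.55, 5.83, 5.75 and 5.74 (Hp14g86).

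The 4 cultures gave unequal ratios. A moderated F test of culture over the 8 arrays (limma, dye orientation as covariate, Benjamini-Hochberg adjustment) called 86 of the 98 members, beside 82.7% of all genes. Its error is that between the 2 arrays of a culture, which is technical, so that it shows that cultures differed beyond the array error and nothing particular to the members. Without the dye term it called 42 members, beside 56.7% of all genes. Culture 3 had the highest ratio in 46 members and the lowest in 3. Among the 1145 genes called upregulated, culture 3 was the highest in 38.6% and the lowest in 4.89%. The log2 ratios of the members correlated between cultures with r from 0.765 (cultures 1 and 4) to 0.915 (cultures 3 and 4), where the points are genes and no replicates of one another. The arrays of cultures 1 and 2 lay in one row of the slide and those of cultures 3 and 4 in the other. Row and culture cannot be told apart. Within the rows, the median log2 ratio of the members was 4.21 for cultures 1 and 2 and 4.54 for cultures 3 and 4, and 86 and 95 members reached the limit. The same values were 4.47 and 4.64, with 71 and 76 of 80, for the genes with the lowest glucose signal, and over all 5999 genes the medians were 0.03 and 0.05, with 182 and 214 genes at the limit.

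To see which condition carried the spread, each channel was centred on the median of its array. The methanol signal then varied more between cultures than the glucose signal in 69 members, with a median SD of 0.39 against 0.28. Over all genes the median SD was also larger on methanol, 0.25 against 0.19. The glucose signal was the more variable in 29 members (29.6%, against 35.8% of all genes). In 39 members (39.8%) the centred glucose signals of cultures 1 and 2 were both above those of cultures 3 and 4, and in 10 both below. Over all genes these shares were 26.2% and 27.1%, and among the 80 genes with the lowest glucose signal 32.5% and 11.2%. Isocitrate lyase, Hp5g471 and Hp12g94 belonged to the 39.

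The ratio of many members depended on the labelling. The log2 ratio with methanol in Cy5 minus that with glucose in Cy5 was tested for each gene with limma over the 4 cultures (difference of at least 1, adjusted p below 0.05). It was larger with methanol in Cy5 in 19 members, beside 1.00% of all genes, and smaller in 0, beside 0% of all genes. With no limit of size, it was larger in 67 members (15.2% of all genes) and smaller in 4 (21.1% of all genes). With the limit, only 1 of the 80 genes with the lowest glucose signal, which were dimmer on methanol (median 11.48 against 15.2), was called. The rule averaged both orientations, so that this difference did not choose the members. In all 19 the difference had the same sign in each culture. Hp8g313 had a log2 ratio of 4.48 with glucose in Cy5 and 6.60 with methanol in Cy5, a difference of 2.12 ± 0.20 (SD, n = 4, adjusted p = 0.000666, limma) that includes the saturated spots on 2 arrays and is not exact. Hp18g124 had 4.19 and 6.14, Hp29g332 had 2.63 and 4.26, Hp32g452 differed by 1.50 and Hp15g65 by 1.46.

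The difference went with brightness on methanol. Of the 33 members with the brightest methanol signals 17 were called, of the 32 in the middle 2, and of the 33 dimmest 0, with median differences of 1.06, 0.40 and 0.15. Across the 98 members, which share their arrays and dyes, the difference correlated with the methanol signal with r = 0.762. In complex I the difference was above 0 in all 13 members, with a median of 0.51, and reached 1.00 in Hp27g294 without passing the limit of size. In sugar uptake and hydrolysis 6 of 10 members were called, with a median of 1.19. The 2 groups were not tested against each other. With only the glucose-in-Cy5 arrays, 10 members were below the ratio limit, Hp29g332 the furthest with 2.63. What brings the difference about was not tested.

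**Figure D4:**
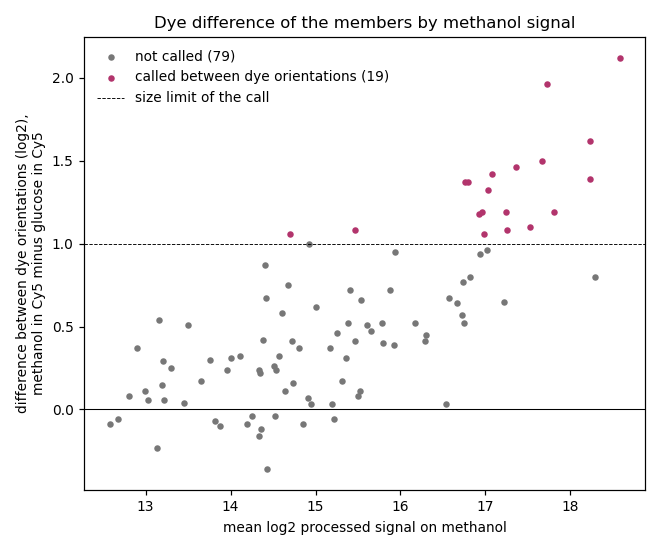
Difference in log2 ratio between the dye orientations (y axis, methanol in Cy5 minus glucose in Cy5, mean of 4 cultures) against the mean log2 processed signal on methanol (x axis) for 98 members. The 19 called members (coloured) lie above the dashed line at 1, and all but 2 of them are among the 33 brightest.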

How the data were processed

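The authors deposited Agilent Feature Extraction (9.5.3.1) output of 8 arrays, in which each spot has a background-corrected, dye-normalized intensity in either dye, and log10 ratios of the same spots. A deposited table of log10 ratios matched these after a shift of 5 positions. From the deposited intensity, log2 values were averaged over both spots of a gene probe, then over both arrays holding the same RNA (n = 4), leaving out spots marked as outliers and keeping saturated ones. Between 90.6% and 98.3% of gene probes were well above background per channel. The number of arrays limits the precision. Fits used limma 3.58.1 in R 4.3.3 with adjustment over 5999 genes and were tested on simulated data. Alternatives were normexp (offset 50) with loess, median centring, either ratio as deposited, either dye orientation, outlier spots kept, a background filter, no A-value minimum, no size limit, no dye term, no replicate block, and each culture left out. The glucose and methanol samples of a culture shared arrays, and their departures from the condition means correlated with r from 0.247 to 0.453. The members and lists were chosen with earlier results of these data known. Per-culture values are given for the 3 members of each group with the largest log2 ratio, the 5 largest ratios, the 5 highest and 3 lowest glucose signals, the 3 nearest each limit, the 5 largest and 3 smallest SDs and the 5 largest dye differences, other genes by their mean or the range of their group. Gene names are the closest matches in the study's gene table, of which a part was readable. No positions or sequences were matched to the gene identifiers.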

Additional observations from a re-analysis of the deposited data

Results flagged for a closer look

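In 6 of the 98 members 1 culture stood apart from the other 3, by a gap to its neighbour over the whole range above the 95% limit for 4 values. About 1 in 20 such sets would do so by chance. The 6 of 98 are near that share, so that the values below are a description only. In 4 of the 6 culture 1 was low. Hp29g332 had a log2 ratio of 2.62 there against 3.64 to 3.81 (gap 0.859 of the range). Hp42g314 had 3.22 against 3.73 to 3.81 (0.876), Hp12g377 had 2.64 against 3.79 to 4.00 (0.843) and Hp11g5 had 3.10 against 3.73 to 3.83 (0.871). Culture 3 was high in the other 2, with 5.39 against 4.96 to 4.98 for Hp44g718 (0.958) and 4.44 against 3.90 to 3.97 for Hp44g108 (0.861).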

How the results depend on the processing

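Of the 98 members, 92 reached the ratio limit with normexp and loess, 95 with median centring, 88 with glucose in Cy5 only and 98 with methanol in Cy5 only, the deposited ratios or all spots, and 91 to 97 with a culture left out. No member fell below a log2 ratio of 2.63 in these settings, and no direction reversed. Members called between dye orientations numbered 71 with no limit of size, 67 of them larger with methanol in Cy5, and 15 to 22 with a culture left out. Members called between cultures numbered 42 with no dye term and 76 to 84 with a culture left out. The cause of that drop was not tested. Among the 78 listed genes that are no members, 64 were called upregulated. Of the 78, 20 had passed the same ratio limit, and all came from a part of the study's gene table that held raised ratios. The count is thus given only for its change with the settings. Without the replicate block, which breaks the pairing of the 2 conditions of a culture, 65 were called upregulated, and the other settings gave 60 to 66. With the arrays of either dye orientation alone, 33 member ratios moved by more than their SD between cultures. All arrays lay on 1 slide, and 4 cultures limit the precision.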
